A study of Mus musculus with 7 samples.

Results

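The sarcoplasmic reticulum, the calcium store of muscle fibres, was examined through 10 genes for its pump, the pump's small inhibitors, its calcium binding proteins, its release channel and the proteins of the triad, where the store meets the surface membrane. The members were Sln, Pln, Atp2a1, Atp2a2, Casq1, Casq2, Ryr1, Asph, Jph1 and Trdn. Every probe set (a group of short array probes summarised to 1 value) that the platform annotation assigned to exactly 1 of these symbols was kept, which gave 25 of the 22626 probe sets tested and 10 of 12393 named genes. Of the 10 genes, 5 had a single probe set and 5 had several. The genes were chosen with the difference between the genotypes in these arrays already known, so their differences are given as a description. Where a member is said to be past the threshold, this places it in a fit over all probe sets and supports nothing about the member.

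The arrays measured total RNA of the mouse soleus, a slow postural hindlimb muscle. Wild type mice gave 3 arrays, and mice labelled Yin Yang 1 (YY1) knockout gave 4. Both groups had an age of 6 months and a mixed genetic background from C57Bl/6 and 129. Which part of Yy1 was removed, by what Cre if any, and in which cells, was not stated in the labels used here, nor whether each array came from a separate mouse. The genotype difference therefore carries whatever the unnamed deletion did in every cell of the muscle, and the errors measure the spread between these samples, which may be technical. YY1 is a zinc finger transcription factor that activates or represses genes.

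Muscle contracts when calcium leaves the reticulum through the ryanodine receptor, which is opened by the voltage sensor of the surface membrane. The SERCA pumps return calcium to the store, where calsequestrin binds it. Sarcolipin and phospholamban are small membrane proteins that bind SERCA and slow its uptake of calcium; sarcolipin also lets the pump hydrolyse ATP with less calcium moved, which releases heat. In rodents sarcolipin is known from the atria and from developing and slow muscle, and phospholamban from heart, slow muscle and smooth muscle.

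The genotype label was checked on Yy1 itself. The probe set with the highest overall mean had a wild type level of 9.38 ± 0.22 log2 units (SD, n = 3) and a knockout level of 8.35 ± 0.11 (SD, n = 4), and no knockout array overlapped with wild type (two-sided exact permutation p = 0.0286, the smallest that 3 arrays against 4 allow). A probe set with a higher wild type level ran from 9.67 to 9.86 log2 units in wild type and measured 8.41, 7.83, 7.83 and 8.10 in knockout arrays 1 to 4. Of the other 2 probe sets, both dimmer, one differed by -0.77 (SE 0.15) without overlap and the dimmest by -0.06 (SE 0.11) with overlapping groups. Over the 4 probe sets the knockout signal was 30.7% to 95.9% of wild type. Array medians of intensity lay between 139.1 and 143. The defining skeletal muscle transcripts Acta1, Ckm, Mb, Des and Ttn had wild type means of 14.22 to 15.57 log2 units, and the 7 slow fibre markers had 14.58 to 15.42. Correlations of log2 values over genes were 0.9954 to 0.9973 between arrays of 1 genotype and 0.9768 to 0.9873 between genotypes. Knockout array 1 was the knockout array nearest to wild type (0.9858 to 0.9873). For some results, the values without 1 array are also given.

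The 2 inhibitor genes differed in opposite directions. Sln, of sarcolipin, was 14.0-fold higher in knockout soleus by its bright probe set, while Pln, of phospholamban, was lower by all 3 of its probe sets, at 22.7% to 41.3% of the wild type signal. The pump genes differed far less: Atp2a1, of the fast-fibre pump SERCA1, was at 79.6% of wild type, and the 4 probe sets of Atp2a2, of the slow and cardiac pump SERCA2, were at 101% to 115%. The brightest pump probe sets lay near the top of the scale, which limits the differences read there. In the triad, Trdn (triadin) and Asph, a gene with several products, were higher by their brightest probe sets and Jph1 (junctophilin 1) was lower.

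Counted over probe sets, 6 of the 25 were higher and 5 lower in knockout at an adjusted p under 0.05 in limma's fit over all probe sets, and 14 did not pass. In the same fit 28.6% of all probe sets passed, 14.3% higher and 14.3% lower. The 2 groups of arrays did not overlap in 13 of the 25, against 36.4% of all probe sets. The median log2 difference of the members was 0.07, and that of all probe sets was 0.01. Since the genes were chosen on this contrast, nothing is read from these counts. With 1 probe set a gene, the one with the highest mean over all arrays, 3 of the 10 members were higher and 3 lower, beside 31.8% of all genes past the threshold, 16.3% higher and 15.5% lower.

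**Figure D1:**
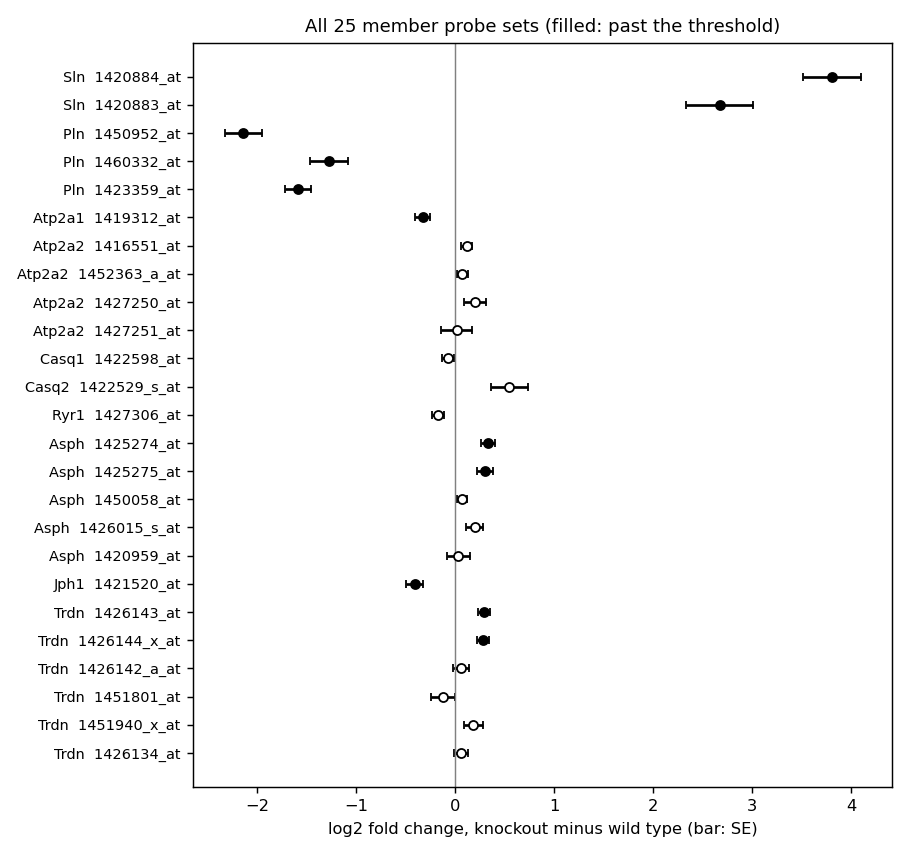
Log2 fold change, knockout minus wild type, of each of the 25 member probe sets (points) with its standard error (bars); filled points are past the threshold of 0.05 on the adjusted p of the fit over all probe sets. The Sln points lie at 3.81 and 2.68 and the Pln points between -2.14 and -1.28, while every other member lies between -0.41 and 0.55.

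Sarcolipin, the first inhibitor, was read by 2 probe sets of Sln. The bright one, 1420884_at, had intensities of 3716, 1384 and 2357 in wild type arrays 1 to 3, and 25813, 38342, 32987 and 32760 in knockout arrays 1 to 4. The groups were far apart: the lowest knockout array was still well above the highest wild type array. On the log2 scale the wild type mean was 11.17 ± 0.71 (SD, n = 3) and the knockout mean 14.97 ± 0.24 (SD, n = 4), a difference of 3.81 (SE 0.29). By this probe set the wild type arrays spanned 1.42 log2 units and the knockout arrays 0.57. The knockout values of 14.66 to 15.23 lay close to the highest value on those arrays, 15.61 to 15.63, so the spread in knockout was read near the top of the scale.

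The second Sln probe set, 1420883_at, was dim in wild type, with log2 values of 4.74, 5.02 and 4.80, where the lowest value of any probe set on an array was 3.63 to 3.79. In knockout it measured 6.70, 8.37, 7.22 and 7.82, again with no overlap. Its spans, 0.28 log2 units in wild type and 1.67 in knockout, stood in the opposite order to those of the bright probe set. The log2 difference was 2.68 (SE 0.34), or 6.39-fold. The table holds no detection calls, so how far background limits this fold is not known. Both probe sets had their lowest knockout value on array 1 and their highest on array 2. In wild type their orders differed: array 2 was the lowest by the bright probe set and the highest by the dim one. Without any 1 array the log2 difference of the bright probe set ranged from 3.44 (without wild type array 2) to 4.15 (without wild type array 1).

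Phospholamban, the other inhibitor, had 3 probe sets for Pln. The brightest, 1450952_at, had intensities of 872, 584 and 1023 in wild type and 205, 184, 193 and 150 in knockout. All knockout arrays lay below all wild type arrays. On the log2 scale the wild type mean of 9.65 ± 0.42 (SD, n = 3) stood against 7.51 ± 0.19 (SD, n = 4), a log2 difference of -2.14 (SE 0.18), or 4.41-fold lower. On that scale the probe set 1460332_at had 9.20, 8.60 and 9.40 in wild type against 7.97, 7.95, 7.76 and 7.48 in knockout, a difference of -1.28 (SE 0.19). The dimmest, 1423359_at, had 8.04, 7.65 and 8.17 against 6.34, 6.17, 6.44 and 6.51, a difference of -1.59 (SE 0.13). The 3 probe sets thus pointed the same way with no overlap, by sizes between 2.42-fold and 4.41-fold. They also ordered the wild type arrays alike, with array 2 lowest and array 3 highest in each, while their order in knockout was not shared.

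**Figure D2:**
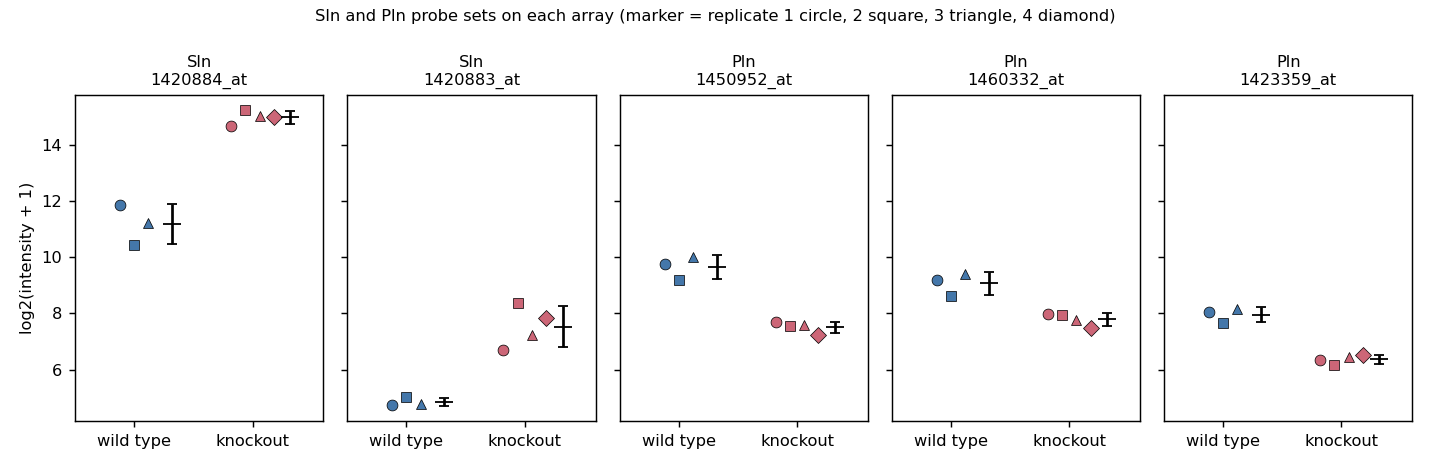
Log2(intensity + 1) of the 2 Sln and 3 Pln probe sets on each array, wild type in blue and knockout in red, with the marker shape giving the replicate number and the bar the group mean and SD (n = 3 and n = 4). Every knockout value of Sln lies above, and every knockout value of Pln below, all wild type values of the same probe set.

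Markers of fibre types and of other cells that express these inhibitors were counted too, beside 16.3% of all genes higher and 15.5% lower. Of 7 markers of developing fibres, all 7 were higher in knockout, and their summed intensity was 2952 to 3327 in wild type and 10632 to 16769 in knockout. Of 7 slow fibre markers, 3 were higher and 1 lower, with sums of 239523 to 260035 and 267231 to 277129. Smooth muscle markers, of another cell type with phospholamban, had 0 of 7 higher and 3 lower, with sums of 4756 to 5053 and 4024 to 4189. Heart muscle markers, 8 in number, had wild type means of 4.96 to 8.21 log2 units, with 2 higher and none lower in knockout and sums of 536 to 901 and 720 to 1332. No marker was listed at 0. In bulk muscle, fewer fibres with a transcript and less of it per fibre cannot be told apart, and the part of these markers in the Sln and Pln differences was not tested.

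Promoter sequences, from RefSeq on the GRCm38.p6 build, matched 5 of the 10 members: Pln, Casq2, Casq1, Atp2a1 and Ryr1. Entries for Sln, Atp2a2, Asph, Jph1 and Trdn were not in the table used here. Each window runs from 250 bases before to 50 bases after the annotated start. Since Yy1 is the gene named in the knockout label, the windows were searched on both strands for the YY1 core CCATNTT. Pln and Casq2 each held 1 match and the other 3 held none, while 16.08% of all 32851 promoter windows held at least 1. The match in Pln, AACATGG on the strand shown, spans bases 176 to 182 of the window, and that in Casq2, AAAATGG, bases 212 to 218. The windows with a match are Pln at chr10:53337436-53337735 and Casq2 at chr3:102086165-102086464, both on the plus strand, 5′ to 3′, with the YY1 match in capitals.
Pln: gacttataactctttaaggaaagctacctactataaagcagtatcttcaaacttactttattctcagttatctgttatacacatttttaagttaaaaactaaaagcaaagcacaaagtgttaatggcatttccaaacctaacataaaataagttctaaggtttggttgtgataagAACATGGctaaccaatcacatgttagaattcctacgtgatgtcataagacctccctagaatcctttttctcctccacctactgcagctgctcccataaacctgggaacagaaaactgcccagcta
Casq2: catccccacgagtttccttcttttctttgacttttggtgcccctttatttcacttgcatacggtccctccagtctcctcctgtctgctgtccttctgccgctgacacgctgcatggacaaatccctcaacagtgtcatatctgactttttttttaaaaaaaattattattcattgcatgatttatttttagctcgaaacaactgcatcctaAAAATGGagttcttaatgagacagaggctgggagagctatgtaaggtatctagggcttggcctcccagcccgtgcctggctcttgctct
The E box CANNTG, the element of myogenic factors, was found in 4 of the 5 windows (all but Ryr1) and in 72.31% of all windows. In Pln it lay at bases 192 to 197 and 259 to 264 and in Casq2 at bases 51 to 56 and 199 to 204, with no overlap with the YY1 match. A MEF2 pattern, which 3.69% of windows held, had no match in the 5. A match of letters is not a measured binding site, and Pln, which was lower, and Casq2, whose arrays overlapped, are the 2 of these 5 members with one.

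Of the pumps, Atp2a1 encodes SERCA1, the pump of fast fibres. Its probe set 1419312_at measured 14.26, 14.35 and 14.35 log2 units in wild type and 14.04, 13.83, 13.98 and 14.11 in knockout. The groups did not overlap, and knockout array 2 was the lowest. The difference was -0.33 (SE 0.08), 1.26-fold lower. Of 9 fast fibre markers, 4 were lower and 1 higher in knockout, beside 15.5% of all genes lower and 16.3% higher. Their summed intensities were 222280 to 232579 in wild type and 166162 to 214481 in knockout. The part of these markers in the Atp2a1 difference was not tested.

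Atp2a2 encodes SERCA2, the pump of slow fibres and heart. Its brightest probe set, 1416551_at, measured 15.14, 15.05 and 15.06 log2 units in wild type and 15.15, 15.25, 15.20 and 15.20 in knockout. The groups were next to each other without overlap, and the difference was 0.12 (SE 0.05). The other 3 probe sets of Atp2a2 had overlapping groups and differences of 0.07 (SE 0.06), 0.20 (SE 0.11) and 0.01 (SE 0.15). None of the 4 passed the threshold, and the dimmest of them, with a wild type mean of 10.38, changed sign when array 2 (-0.05) or 3 (-0.09) of wild type or array 4 of knockout (-0.09) was left out.

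The store proteins were calsequestrin 1, the main form in skeletal muscle, and calsequestrin 2, the form of heart and slow fibres. Casq1 (1422598_at) measured 13.25, 13.27 and 13.26 log2 units in wild type and 13.22, 13.09, 13.30 and 13.16 in knockout. The groups overlapped, with a difference of -0.07 (SE 0.06). It was among the steadiest members in wild type, where its arrays spanned 0.015 log2 units. Casq2 (1422529_s_at, a type of probe set that can match more than 1 transcript) measured 12.52, 11.89 and 11.76 in wild type and 12.83, 12.54, 12.36 and 12.70 in knockout. Wild type array 1 lay inside the knockout range, and the difference of 0.55 (SE 0.18), 1.46-fold, was just outside the threshold. Without wild type array 1 it was 0.78, and without wild type array 3 it was 0.40.

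The release channel gene Ryr1, of the skeletal muscle ryanodine receptor, measured 14.04, 14.02 and 14.03 log2 units in wild type and 13.91, 13.87, 13.72 and 13.90 in knockout by 1427306_at. The knockout arrays lay below the wild type arrays by a small margin, with a difference of -0.18 (SE 0.06) that did not pass the threshold. Its wild type arrays spanned 0.019 log2 units.

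The triad proteins link the channel to the store and to the surface membrane. Trdn encodes triadin, which ties calsequestrin to the ryanodine receptor, and had 6 probe sets. Its brightest, 1426143_at, measured 14.62, 14.50 and 14.45 log2 units in wild type and 14.82, 14.84, 14.75 and 14.85 in knockout, a difference of 0.29 (SE 0.06) without overlap. The next brightest, 1426144_x_at, gave 14.48, 14.35 and 14.39 against 14.71, 14.72, 14.58 and 14.75, a difference of 0.28 (SE 0.06). Both were thus higher in every knockout array. The other 4 probe sets overlapped between the groups, with differences from -0.12 (SE 0.12) to 0.18 (SE 0.10). One of these 4, 1426142_a_at, was annotated to the same source clone as the 2 that were higher and measured 0.06 (SE 0.08), so the probe sets of Trdn did not give 1 answer.

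Asph encodes several proteins, among them junctin, a partner of triadin, and an aspartyl hydroxylase, and had 5 probe sets. The brightest, 1425274_at, measured 11.92, 12.03 and 12.04 log2 units in wild type and 12.46, 12.30, 12.23 and 12.34 in knockout, a difference of 0.33 (SE 0.07). The second, 1425275_at, gave 11.67, 11.98 and 11.79 against 12.14, 12.19, 12.03 and 12.11, a difference of 0.30 (SE 0.08). Neither overlapped between the groups. The second lost its place past the threshold without array 1 (0.23) or 3 (0.29) of wild type and without array 2 (0.28) or 4 (0.30) of knockout. The remaining 3 probe sets, with wild type means of 7.03 to 7.10, overlapped and differed by 0.03 to 0.20. The brightest 2 were annotated to the same source clone, and the remaining 3 to other source sequences. The labels and annotation used here do not say which Asph product each probe set reads.

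Jph1 encodes junctophilin 1, which holds the reticulum close to the surface membrane. Its single probe set, 1421520_at, measured 7.91, 8.08 and 7.77 log2 units in wild type and 7.46, 7.43, 7.51 and 7.65 in knockout. All knockout arrays were below all wild type arrays, with a difference of -0.41 (SE 0.09), 1.33-fold lower.

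**Figure D3:**
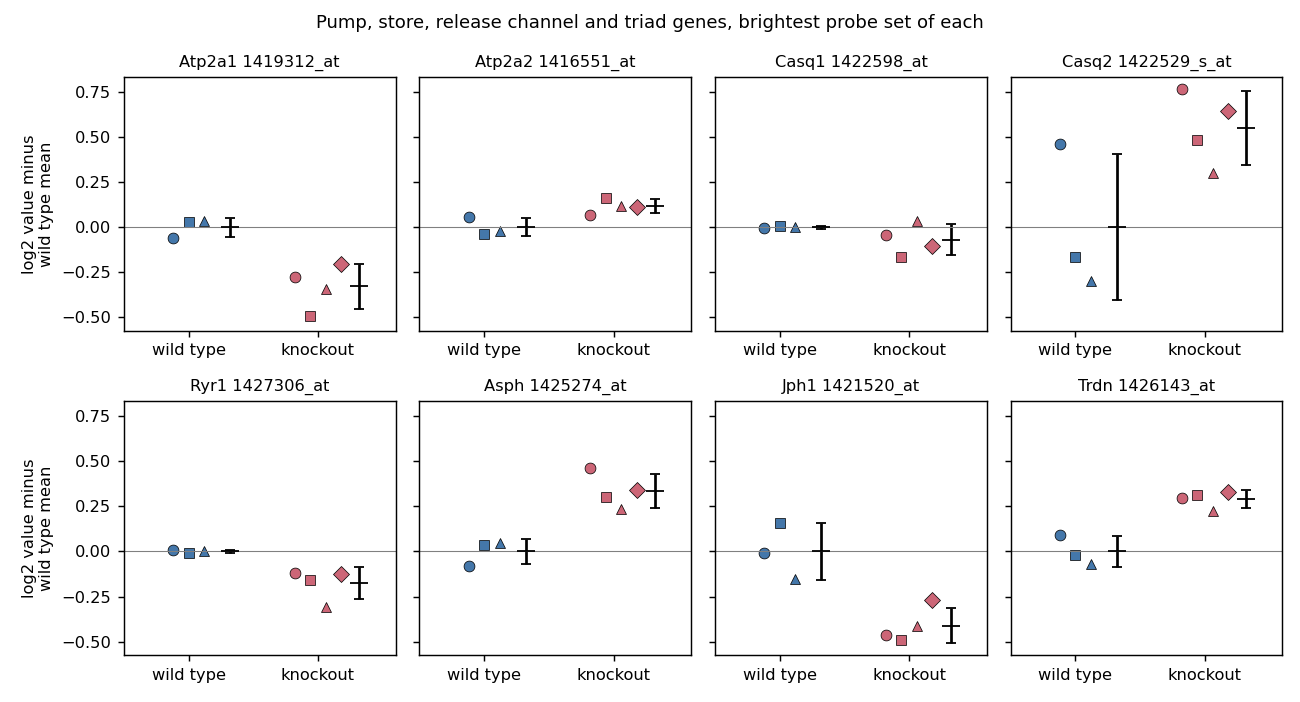
Log2 value of the brightest probe set of each of the 8 members outside Sln and Pln on each array, minus its wild type mean, with the group mean and SD as bars (n = 3 wild type in blue, n = 4 knockout in red). The widest wild type spread is that of Casq2, whose wild type array 1 lies among the knockout arrays, while Casq1 and Ryr1 have the narrowest.

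Beside the members, 79 other genes of calcium cycling were measured, in lists ordered by role. The lists were written from general knowledge, but with earlier results of these data known, so their counts are given as a description. Of these, 20 rose, 14 fell and 45 did not pass, beside 16.3% and 15.5% of all genes that rose and fell, and their median log2 fold change was 0.04 against 0.01 over all genes. Adjusted p-values here are from limma over all probe sets, with 1 probe set a gene.

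Of 18 modulators of the pump and of its inhibitors, 4 rose and 5 fell (median -0.11). Prkar1a encodes a regulatory subunit of protein kinase A, the kinase that relieves inhibition by phospholamban. Prkar1a rose by 0.57 (SE 0.07, adjusted p = 0.000669), and its other probe set measured 1.09. Prkaca, a catalytic subunit of the kinase, rose by 0.36 (SE 0.07, adjusted p = 0.00583). Ppp1r1a, an inhibitor of protein phosphatase 1, had 11.37 ± 0.03 log2 units in wild type (SD, n = 3) against 9.60 ± 0.40 in knockout (SD, n = 4), and changed by -1.77 (SE 0.19, limma adjusted p = 0.000329). Atp2a3, of the pump SERCA3, changed by -0.42 (SE 0.06, adjusted p = 0.00171), while its other probe set measured 0.07.

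Of 21 genes of the triad, T tubule and voltage sensor, 6 rose and 3 fell (median -0.04). The largest change in any of the lists was that of Ryr3, the ryanodine receptor known from developing muscle, which measured 5.37, 4.99 and 5.29 log2 units in wild type and 7.77, 7.74, 7.76 and 7.86 in knockout. It rose by 2.57 (SE 0.09, adjusted p = 3.4e-05), or 5.92-fold, and its other probe set measured 0.23. The wild type values of Ryr3 lay near the bottom of the scale, so how far background limits this fold is not known. Cav3, of caveolin 3 in the T tubule, rose by 0.41 (SE 0.07). Speg, a kinase of the triad, and Cacna1s, the pore of the voltage sensor, changed by -0.51 (SE 0.07, with 3 further probe sets at -1.06 to -0.21) and -0.55 (SE 0.11). The number that rose was 3 without wild type array 2, where Bin1, Cacng1 and Homer2 lost their calls.

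Other calcium binding proteins of the reticulum rose in 4 of 11 cases and none fell in limma's fit (0 lower also at an unadjusted p under 0.05; median 0.14). Rcn2 (reticulocalbin 2) rose by 0.69 (SE 0.06, adjusted p = 0.000137) and Calu (calumenin) by 0.38 (SE 0.05, adjusted p = 0.00121). The others that rose were Pdia3 and Hspa5. This list was not limited to proteins of the muscle store. Hrc, a calcium binding protein of that store given here outside the naming rule, measured -0.07 (SE 0.05, adjusted p = 0.377). Of 9 genes of store-operated entry, inositol trisphosphate receptors and mitochondrial calcium handling, 3 fell and none rose in limma's fit (0 higher and 4 lower at an unadjusted p under 0.05; median -0.13). Letm1, of the mitochondrial inner membrane, changed by -0.33 (SE 0.07, adjusted p = 0.00815) and the inositol trisphosphate receptor Itpr2 by -0.36 (SE 0.10, adjusted p = 0.0317). Leaving out wild type array 1 or knockout arrays 1 or 3 left 1 that fell. Itpr2 lost its call without each of these 3 and also without wild type array 2 or knockout array 4 (adjusted p = 0.0516 to 0.116).

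None of 7 genes of cytosolic buffering and calcium extrusion passed in limma's fit (1 lower and 0 higher at an unadjusted p under 0.05; median 0.04). The 2 with the smallest p were Calb1 at -0.28 (SE 0.11, adjusted p = 0.0817) and Calb2 at 0.17 (SE 0.09, adjusted p = 0.178), both calcium buffers. Calb1 passed without wild type array 2 (-0.38, adjusted p = 0.0388), while its other probe set measured 0.0001 over all arrays. In calcineurin and NFAT signalling, which reads calcium to set slow fibre genes, 6 of 13 rose and 3 fell (median 0.16). The factor Nfatc2 rose by 0.58 (SE 0.08, adjusted p = 0.00124; the 3 further probe sets lay between -0.06 and 0.09). Ppp3r1, the regulatory subunit of calcineurin, rose by 0.40 (SE 0.06, adjusted p = 0.002) with its other probe set at -0.22. Myoz1, a Z-disc protein that binds calcineurin, changed by -0.48 (SE 0.13, adjusted p = 0.0218) and Rcan2, a calcineurin inhibitor, by -0.33 (SE 0.09, adjusted p = 0.0249). Leaving out wild type array 2 left 0 that fell, and leaving out wild type array 3 or any of knockout arrays 2, 3 and 4 left 1.

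**Figure D4:**
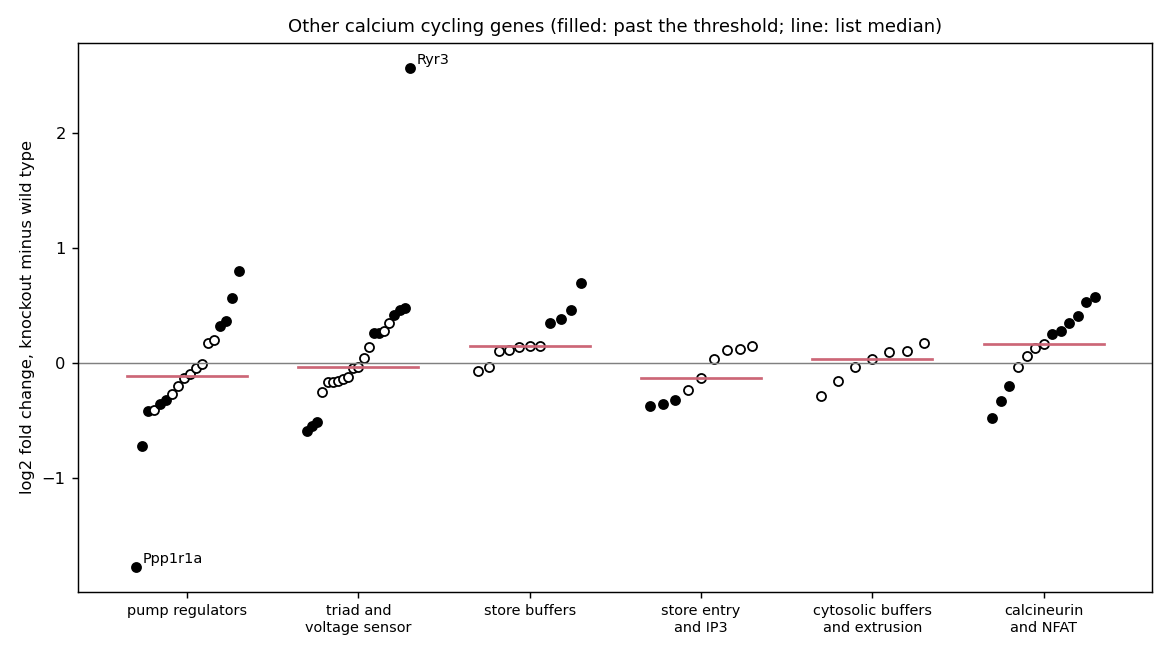
Log2 fold change, knockout minus wild type, of the 79 other calcium cycling genes by list, 1 point a gene, filled where past the threshold, with the list median as a line. Ryr3 at 2.57 and Ppp1r1a at -1.77 lie apart, and the list medians lie between -0.13 and 0.16.

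The genes whose log2 values followed Sln and Pln most closely over the 7 arrays were sought among 6109 genes. These had a mean above the median of all genes, and genes with clone names were passed over. For Sln they were Kdm3b (Pearson r = 0.9988, log2 fold change 0.25), Mcm7 (r = 0.9956, 0.73), Sec23ip (r = 0.9939, 0.45) and Rab31 (r = 0.9928, 1.62). For Pln they were Glg1 (r = 0.9929, log2 fold change -0.29), Camk1g (r = 0.9919, -1.09), Podxl (r = 0.9896, -0.85) and Slc25a29 (r = 0.9895, -0.63). These are descriptions over 7 arrays that form 2 separate genotype groups, so r largely repeats the genotype difference.

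Markers of further cell types were counted as well, beside 16.3% of all genes higher and 15.5% lower. All 7 macrophage markers and 4 of 6 fibroblast markers were higher in knockout, with summed intensities of 2955 to 3513 and 18591 to 21926 in wild type and 6266 to 10203 and 23757 to 35806 in knockout. Endothelial markers were lower in 6 of 7 cases (3240 to 3632 against 1700 to 1794). Of 5 adipocyte and 5 Schwann cell markers listed, 3 each were measured. Adipocyte markers were higher in 1 and lower in 1 of 3, and Schwann cell markers were lower in 1 of 3. Nothing is read from these short lists. The part of all these cell types in the differences of the calcium store genes was not tested.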

How the data were processed

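The authors deposited 1 intensity per probe set and array, on a linear scale, and RMA, a method that corrects background, normalizes arrays to each other and summarises probes, is named per the submitters' processing notes, with no version. Of 22690 probe sets, 64 controls were left out. Of the rest, 20380 had 1 gene symbol, 691 had several and 1555 none. Symbols were updated through Entrez identifiers (12369 of 12393 genes matched RefSeq). Values were taken to log2(intensity + 1). Knockout was compared with wild type per probe set with limma 3.58.1 in R 4.3.3 (lmFit, eBayes, two-sided), with Benjamini-Hochberg adjustment over 22626 probe sets and a threshold of 0.05. Differences are knockout minus wild type, on the log2 scale with the pseudocount of 1. No filter on dim probe sets was used. Levels of different probe sets were used to rank or choose probe sets and in marker sums. They are not read as relative amounts of transcript. Arrays hold no depth, and their number, 7, limits precision. No array duplicated another (1819 equal values at most in a pair). The scripts were tested on simulated data.

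The members and lists were chosen with earlier results of these data known. Named genes were all members, Yy1, up to 2 genes in each direction with the smallest p per list (or the 2 smallest where none passed), and the 4 genes most correlated with Sln and with Pln. The groups share replicate numbers 1 to 3, but arrays with the same number did not deviate together from their group means (r = 0.029, -0.126 and 0.017), so no pairing was used. Alternatives were 1 probe set a gene, a pseudocount of 16, other scalings, a filter on dim probe sets, an intensity trend, the replicate block and leaving out each array.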

Additional observations from a re-analysis of the deposited data

Results flagged for a closer look

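The probe set 1452363_a_at of Atp2a2 measured 14.91 log2 units on knockout array 4 and 14.85 on each of the other 3 knockout arrays, so that the whole range of the group was the gap to array 4. That range was only 0.06 log2 units, and the gap filled it because the other 3 arrays held equal values. It was the only 1 of 47 probe sets examined (the members, Yy1 and the named list genes) flagged for its gap relative to the range. Chance alone marks about 1 group in 20. Groups of 3 arrays were not examined.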

How the results depend on the processing

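The 2 Sln and 3 Pln probe sets, Atp2a1, Jph1 and the brightest Trdn probe set had the same direction and lay past the threshold under each alternative that tested them; the members were chosen on this contrast, so nothing about their stability is read from this. Under the replicate block the brightest 2 Asph probe sets and 1426144_x_at of Trdn did not pass, leaving 4 member probe sets higher and 5 lower. Casq2 passed under the replicate block, with quantile normalization, with 1 probe set a gene, over probe sets above the median level, with an intensity trend and without wild type array 1. Ryr1 passed with a pseudocount of 16, over probe sets above the median level and with an intensity trend, and 1416551_at of Atp2a2 with quantile normalization, which also turned Casq1 from -0.07 to 0.02. With 1 probe set a gene, 3 member probe sets were lower, and 2103 genes rose and 1979 fell, since fewer features were tested. The replicate block left 3 triad and voltage sensor genes higher, 1 store entry gene lower and 1 calcineurin or NFAT gene lower. With the block, which did not reflect a pairing in these arrays, Yy1 kept its fall (-1.0), and 2440 probe sets rose and 2620 fell. Leaving out 1 array gave 0 to 2 calcineurin or NFAT genes lower and 1 to 3 store entry genes lower. It gave 0 to 1 cytosolic buffer or extrusion genes lower and 3 to 6 triad genes higher. Calcineurin or NFAT genes higher in knockout then numbered 4 to 6. Over all lists together, 14 to 19 genes were then higher and 10 to 12 lower. No alternative moved the median of all probe sets beyond 0.016. Signal near the top of the scale (Atp2a1, Atp2a2, Trdn, Sln in knockout) and near its bottom (Sln 1420883_at and Ryr3 in wild type) limits the differences read there.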

Other observations

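Some list genes outside the naming rule, chosen after their values were seen, act on the same proteins. Camk2d, of a calmodulin kinase that phosphorylates phospholamban, rose by 0.80 log2 units (SE 0.19, limma adjusted p = 0.0152), with knockout arrays between 8.31 and 9.30 and wild type arrays between 7.91 and 7.99. Camk2d lost its call without any 1 wild type array (adjusted p = 0.0514 to 0.0608). The other listed genes of this kinase did not share its direction throughout. Camk2g changed by -0.32 (SE 0.06, adjusted p = 0.00402), while Camk2b at -0.20 (SE 0.07) and Camk2a at 0.20 (SE 0.11) did not pass. S100a1, a calcium sensor that binds the ryanodine receptor and the pump, changed by -0.72 (SE 0.14, adjusted p = 0.00569), with 12.08 to 12.27 in wild type and 11.08 to 11.69 in knockout. Rcan1, a calcineurin inhibitor, rose by 0.53 (SE 0.10, adjusted p = 0.00545) while Rcan2 fell by 0.33. Hspa5, the reticulum chaperone BiP, rose by 0.46 (SE 0.10, adjusted p = 0.00903), while Hrc, the histidine-rich calcium binding protein of the store, measured -0.07 (SE 0.05, adjusted p = 0.377).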
